A study of Mus musculus with 7 samples.

Results

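The comparison covers 4 libraries of the medial amygdala of male mice, of 7 libraries in the series. The columns of their raw counts begin with mb (mb_1 and mb_2) or with mv (mv_1 and mv_2), and they were compared as 2 libraries against 2. The sample labels call all 4 Trap-Ai9 males given tamoxifen at postnatal day 24 and sacrificed at 2 months of age, and they do not explain the letters mb and mv. What sets the mb animals apart from the mv animals is therefore not known here, and the names are used as column names. The 3 libraries whose columns begin with f are Trap-Ai9 females given tamoxifen at 6 weeks and sacrificed at the same age. Per these labels they differ from the males in sex and in the age at tamoxifen, although the series' design text names day 24 only, without a separate age for females. They serve as a reference only. In Trap-Ai9 mice a recombinase made from the Fos locus, active only with tamoxifen, turns on a red fluorescent reporter permanently, so that cells active around the tamoxifen dose stay marked. The fluorescent area, for which the submitters use the unexplained word DIMPLE, was cut out of brain slices on both sides.

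The medial amygdala receives vomeronasal and olfactory signals, and its largely GABAergic neurons express sex steroid receptors, aromatase and many neuropeptides. It lies beside the optic tract, the lateral ventricle with its choroid plexus, the hypothalamus, and the glutamatergic neurons of the cortical and basolateral amygdala. A dissected piece can hold some of each. In bulk RNA, fewer cells of a type and less RNA per cell cannot be told apart.

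The labelled tissue was checked against its defining genes in the 4 male libraries. Esr1, the oestrogen receptor alpha gene, stood at 57.3 and 50.8 CPM (counts scaled to a common library size) in mb_1 and mb_2 and at 44 and 42.2 CPM in mv_1 and mv_2. Cyp19a1, the aromatase gene, stood at 21 and 17.8 CPM in mb and at 22.1 and 34.5 CPM in mv. Of 19 listed transcription factors of medial amygdala lineages, 17 passed the filter on low counts, and their summed level was 328 to 525 CPM in the 4 libraries. The Y-linked helicase gene Ddx3y stood at 89.6 to 136 CPM in the 4 males and at no more than 0.218 CPM in f. Xist, the noncoding RNA of the inactive X chromosome, stood at no more than 0.283 CPM in the males. The total counts were 46494588 in mb_1, 40473375 in mb_2, 29049604 in mv_1 and 38032582 in mv_2. The percent DIMPLE of the pieces was 32 and 29 in mb and 40 and 18 in mv, with means of 30.5 ± 2.12 and 29 ± 15.6 (SD, n = 2 each), a difference within the spread of each name (exact permutation test, two-sided, p = 1). With 2 against 2 libraries the smallest p that this test can give is 0.333. Nothing in the labels says which animals shared a litter, a day or a batch, so the p-values measure the spread between these samples.

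The libraries stood apart in parts of their RNA. Among the genes tested, 85 stood in mb_1 at least 8 times above each of the other male libraries. Of these, 12 were choroid plexus genes, of 17 tested from a list of 20. The same count was 1 in mb_2, 1 in mv_1 and 3 in mv_2. The filter on low counts asks for 2 libraries, so these counts miss genes found in a single library. The untested choroid plexus genes Kcne2, Aqp1 and Slc4a5 were also more than 8 times higher in mb_1. The 13 mitochondrially encoded genes summed to 59500 CPM in mv_1 and to 22700, 25900 and 28800 CPM in mb_1, mb_2 and mv_2. In mv_2, hypothalamic peptide genes were high among the males, and mb_2 held the highest immediate early genes. The pairs of libraries did not sort by their names. Over the 20168 genes tested, Pearson's r of log2 levels was 0.987 between mb_2 and mv_2, 0.982 between mb_2 and mv_1, 0.978 between mv_1 and mv_2, and 0.975 between mb_1 and mb_2. The lowest r was 0.961, between mb_1 and mv_1. These correlations are across genes of the same tissue, and genes are not independent replicates.

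The first question was whether any gene separated mb from mv beyond the spread between libraries. By edgeR's quasi-likelihood test with Benjamini-Hochberg adjustment over all 20168 genes, 0 genes passed an adjusted p of 0.05, which is 0 percent, and the smallest adjusted p was 0.415. Without adjustment, 937 genes had a p under 0.05, of which 617 were higher in mb (3.06 percent of genes tested) and 320 were lower (1.59 percent). An even spread of p-values would give 1008. limma-voom called 0 genes, with 810 at an unadjusted p under 0.05. DESeq2 called 40, of which 29 were higher in mb (0.156 percent of 18604 genes with an adjusted p) and 11 lower (0.0591 percent). Both mb libraries lay above both mv libraries for 18.3 percent of genes tested, and below them for 16.3 percent. When mb_1 was left out, edgeR called 58 genes, and when mb_2 was left out it called 454, 402 of them higher in mb_1. Without mv_1 and without mv_2 it called 1 and 0. Each of these fits leaves a lone library on its side, which is assumed to vary like the others. Their p-values therefore do not measure the spread within that side. The genes below are therefore described by their levels, and their estimates did not pass edgeR's threshold.

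The 15 genes of lowest p that were higher in mb had roles in retinoid breakdown, ion conductance and antigen presentation. Cyp26a1, which encodes the cytochrome P450 that breaks down retinoic acid, led them (ENSMUSG00000024987, chromosome 19, 37686246 to 37689984, GRCm39). It stood at 4.07 and 7.96 CPM in mb_1 and mb_2, at 0.714 and 0.551 CPM in mv_1 and mv_2, and at 0.249 to 0.498 CPM in f. Both mb libraries were thus above all 5 others. The log2 fold change, mb over mv, was 3.24 ± 0.54 (SE), with an edgeR adjusted p of 0.852 and a DESeq2 adjusted p of 2.8e-05. The estimate was 3.66 without mb_1, 2.69 without mb_2, 3.44 without mv_1 and 3.07 without mv_2.

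The promoter of Cyp26a1 is printed because this gene led the comparison and because retinoic acid receptors are known to act there. It covers 250 bases before the annotated start and 50 after it, from RefSeq on GRCm38.p6, chr19:37697558-37697857, plus strand. Capitals mark the motif AGTTCA, read on the opposite strand and repeated in the same direction with 5 bases between the copies, the spacing that retinoic acid receptors bind. The match begins 32 bases before the start.
Cyp26a1: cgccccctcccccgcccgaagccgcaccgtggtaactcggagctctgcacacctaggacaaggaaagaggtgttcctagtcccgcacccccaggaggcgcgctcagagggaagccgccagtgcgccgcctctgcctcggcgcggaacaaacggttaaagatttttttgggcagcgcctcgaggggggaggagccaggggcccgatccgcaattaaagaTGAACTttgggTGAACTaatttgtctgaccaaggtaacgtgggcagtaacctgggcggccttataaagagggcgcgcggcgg
Searched on both strands, this exact repeat occurs in 8 of 32851 promoters of that length, which is 0.0244 percent. A match is a description of the letters and not of binding in these samples.

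Wdfy1, an adaptor protein gene of endosomes, stood at 47.3 and 46.8 CPM in mb, 17.2 and 17.6 CPM in mv, and 13.8 to 19.8 CPM in f. The libraries within each name lay close together here, with a log2 fold change of 1.43 ± 0.24 (edgeR adjusted p = 0.852, DESeq2 adjusted p = 0.00321). Sgk1, the serum- and glucocorticoid-regulated kinase gene, stood at 118 and 117 CPM in mb and at 49.1 and 29.3 CPM in mv, and f_3 with 85.9 CPM came nearer to mb than the other f libraries did. Its log2 fold change was 1.58 ± 0.3 (edgeR adjusted p = 0.852), 1.58 without mb_1 (0.0435) and 1.6 without mb_2 (0.00724). Krt2, a keratin gene best known from epidermis, stood at 33.1 and 41.3 CPM in mb, 11.2 and 4.62 CPM in mv and 1.71 to 3.94 CPM in f. The log2 fold change of Krt2 was 2.39, 2.07, 3.01 and 1.73 without mb_1, mb_2, mv_1 and mv_2. That of Wdfy1 ran from 1.42 to 1.45 over these fits.

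Genes for ion channels and for an anion transporter stood among them. Kcnh3, a voltage-gated potassium channel gene of forebrain neurons, stood at 66.3 and 82 CPM in mb against 30.8 and 26.6 CPM in mv. Kcnk13, a leak potassium channel gene of microglia, stood at 20.1 and 22.3 CPM against 8.31 and 8.16 CPM. Pex5l, which encodes an auxiliary subunit of HCN channels, stood at 86.6 and 89.4 CPM against 44.5 and 44 CPM. For all 3 the libraries of one name differed by less than the names did. Slc26a7, an anion transporter gene, stood at 4.07 and 1.74 CPM in mb and at 0.392 and 0.157 CPM in mv, but at 1.55 CPM in f_3. Slc26a7 had an edgeR adjusted p of 4.27e-05 without mb_2 and 0.257 without mb_1.

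The remaining genes of that group spanned several cell types. Ptgds, the prostaglandin D synthase gene of meninges and oligodendrocytes, stood at 506 and 530 CPM in mb and 195 and 241 CPM in mv. In f_3 it reached 391 CPM. Nptx1, a pentraxin gene whose protein gathers AMPA receptors at excitatory synapses, stood at 371 and 431 CPM in mb, 201 and 139 CPM in mv and 82.5 to 114 CPM in f. Kit, a receptor tyrosine kinase gene, stood at 20.8 and 24.4 CPM against 9.03 and 9.21 CPM. Myo5b, a myosin gene of endosome recycling, stood at 54.6 and 53.1 CPM against 25.3 and 18.2 CPM, and Abca8a, a lipid transporter gene, at 14 and 8.99 CPM against 3.46 and 3.33 CPM. Abca8a had an edgeR adjusted p of 0.0075 without mb_2 and 0.954 without mb_1. In every one of these 15 genes the mean level of f was nearer to mv than to mb, and all 3 f libraries were below both mb libraries.

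The 15 genes of lowest p that were lower in mb held peptide, receptor and haemoglobin genes. The smallest p belonged to Vmn1r47, a vomeronasal receptor gene (ENSMUSG00000060724, chromosome 6, 89993129 to 90004459, GRCm39). It held 3 reads in both mb libraries together and 208 in both mv libraries, at 0.0217 and 0.0491 CPM against 3.6 and 2.81 CPM. The ratio of mv to mb was 90.9 with a 95 percent interval of 30.7 to 444, which covers counting error only. The f libraries stood at 0, 0.186 and 0.0847 CPM, near mb and far below mv. Its edgeR adjusted p was 0.415 with all 4 libraries. The log2 fold change, mb over mv, was -5.92, -6.99, -6.22 and -6.57 without mb_1, mb_2, mv_1 and mv_2. Vomeronasal receptor genes are a large family of similar copies, and reads of near-identical copies may be assigned uncertainly.

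Peptide genes of the amygdala followed. Gal, the galanin gene (ENSMUSG00000024907, chromosome 19, 3459915 to 3464544, GRCm39), stood at 12.9 and 12.3 CPM in mb and at 41.6 and 57.4 CPM in mv. The f libraries stood at 13.6 to 20.2 CPM, above both mb libraries and below both mv libraries. Its log2 fold change was -1.98 ± 0.27 (SE, edgeR adjusted p = 0.852, DESeq2 adjusted p = 6.21e-06). It was -2.01, -1.94, -2.19 and -1.73 without mb_1, mb_2, mv_1 and mv_2. Cartpt, the gene of the CART peptide, stood at 559 and 502 CPM in mb, 1030 and 1190 CPM in mv and 1270 to 1490 CPM in f. Cck, the cholecystokinin gene, stood at 352 and 367 CPM in mb, 680 and 867 CPM in mv and 510 to 628 CPM in f. For Cartpt the f libraries were above all 4 males, whereas for Cck they lay between mb and mv.

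Tac1, the substance P gene, which the list of neuropeptides brought in, stood at 388 and 442 CPM in mb, 993 and 725 CPM in mv and 631 to 777 CPM in f. Npy, the neuropeptide Y gene, stood at 58.4 and 82.6 CPM in mb and 136 and 93.1 CPM in mv. Of 28 neuropeptide genes tested, 19 were lower and 9 higher in mb, with a median log2 fold change of -0.3. Of these, 7 had an unadjusted p under 0.05, all lower in mb, and 9 lay below both mv libraries in both mb libraries. DESeq2 called 1. The median was -0.07 without mv_2, so that much of this list's shift rested on mv_2. Penk, the enkephalin gene, went the other way at 173 and 125 CPM in mb and 112 and 142 CPM in mv, and the groups overlapped.

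Scgn, the gene of the calcium sensor secretagogin, stood at 8.09 and 7.2 CPM in mb, 24.1 and 28.8 CPM in mv and 25.7 to 32 CPM in f. Its log2 fold change was -1.8 ± 0.28 (SE, edgeR adjusted p = 0.852, DESeq2 adjusted p = 0.000107). It was -1.87, -1.71, -1.91 and -1.66 without mb_1, mb_2, mv_1 and mv_2. Brs3, an orphan receptor gene of the bombesin family, stood at 14.7 and 9.68 CPM in mb, 27.1 and 35.3 CPM in mv and 55.3 to 90.8 CPM in f. Mc4r, the melanocortin receptor gene that restrains feeding, stood at 12.1 and 12.9 CPM in mb, 19.4 and 22.6 CPM in mv and 26.4 to 31.8 CPM in f. Brs3 and Mc4r thus had the same order, with mb lowest and f highest.

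Ppp1r17, a phosphatase inhibitor gene, stood at 8.87 and 7.49 CPM in mb against 18.8 and 25 CPM in mv, with a DESeq2 adjusted p of 0.0216. Chodl, the chondrolectin gene, stood at 17.8 and 17.3 CPM against 32.3 and 40 CPM. Tmsb10, a thymosin gene that binds actin monomers, stood at 146 and 165 CPM against 316 and 306 CPM, and Lbhd2 at 12.9 and 16.1 CPM against 31.8 and 32.7 CPM. Gpx6, a glutathione peroxidase gene, stood at 0.326 and 0.221 CPM against 0.963 and 2.78 CPM. In all 15 lower genes but Vmn1r47, the 3 f libraries were above both mb libraries. The mean of f was nearer to mv than to mb in 10 of the 15. For the 617 and 320 genes with an unadjusted p under 0.05 that were higher and lower in mb, f was nearer to mv in 80.7 and 62.5 percent, against 49.9 percent of all genes tested. The f libraries entered neither the test nor the choice of genes, but they differ from both in sex and, per the sample labels, in the age at tamoxifen.

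**Figure D1:**
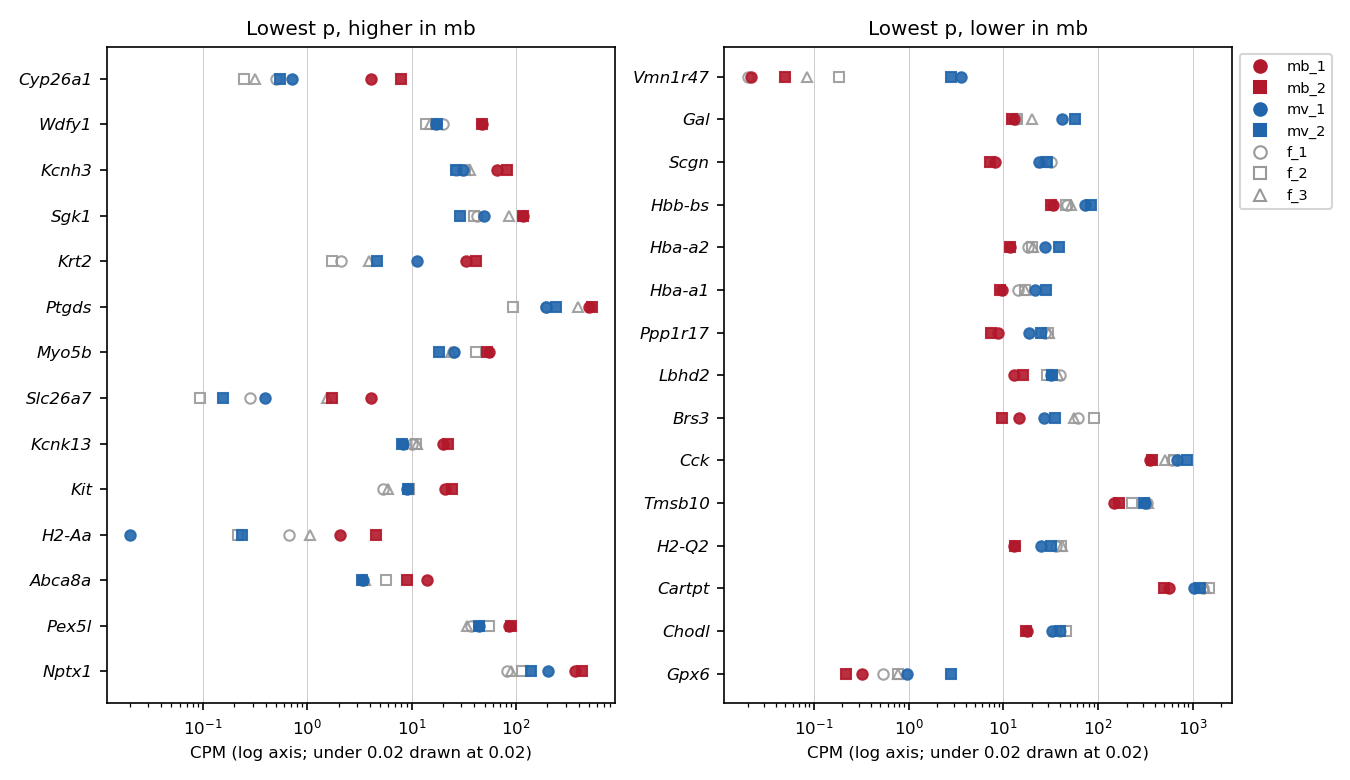
Levels in CPM (log axis) of the named genes with the smallest p on either side, 14 higher and 15 lower in mb, one marker per library, with mb in red, mv in blue and f in open grey. The red and blue markers do not overlap for any of these genes, which is how low p-values choose them, and the grey markers lie to the left of both red markers in every gene on the left.

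Haemoglobin genes, which mark residual red blood cells, had lower levels in both mb libraries than in both mv libraries. Hbb-bs, a beta chain gene, stood at 33.4 and 31.7 CPM in mb, 72.3 and 83.9 CPM in mv and 46.2 to 51.6 CPM in f. Hba-a2 stood at 11.9 and 11.7 CPM in mb and 27.8 and 38.7 CPM in mv, and Hba-a1 at 9.63 and 9.19 CPM against 21.5 and 28.4 CPM. Hbb-bt stood at 8.18 and 6 CPM against 18.6 and 14.5 CPM. All 5 genes of the blood list had lower estimates in mb, with a median log2 fold change of -1.27, and 4 of them had an unadjusted p under 0.05. DESeq2 called 3. The median stayed between -1.46 and -1.19 when each library was left out in turn. The haemoglobin copies are nearly identical and share reads, so that they are not independent genes.

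Choroid plexus transcripts were high in mb_1 and low in mb_2, so that the mean of mb says little about either. The choroid plexus is the ventricular epithelium that secretes cerebrospinal fluid. Ttr, the transthyretin gene (ENSMUSG00000061808, chromosome 18), stood at 13600 CPM in mb_1 but at 8.55 CPM in mb_2, below the 15.8 and 25.2 CPM of mv_1 and mv_2. In f it stood at 67.6, 14.1 and 248 CPM. Enpp2, the autotaxin gene, stood at 7010 CPM in mb_1 and 84.1 CPM in mb_2, and at 65.8 and 78.5 CPM in mv. Kl, the klotho gene, stood at 512 and 13.2 CPM in mb and 8.17 and 12.1 CPM in mv. In these 3 genes mb_1 was far above the other male libraries.

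In genes of fluid secretion and transport mb_1 was again far above the rest. Clic6, a chloride channel gene, stood at 281 and 2.36 CPM in mb and 2.35 and 3.36 CPM in mv. Folr1, the folate receptor gene, stood at 178 and 2.75 CPM in mb and 7.42 and 1.71 CPM in mv. Kcnj13, a potassium channel gene, stood at 105 and 0.663 CPM in mb and 0.0714 and 0.577 CPM in mv. Sostdc1, which encodes a secreted BMP and Wnt antagonist, stood at 113 and 2.43 CPM in mb and 5.78 and 3.28 CPM in mv, and Cab39l, a kinase scaffold gene, at 268 and 42.2 CPM against 39.4 and 41.8 CPM. Kcne2, a potassium channel subunit gene, stood at 130 CPM in mb_1 and at most 0.184 CPM in the other males, and the water channel gene Aqp1 at 47.1 CPM and at most 0.105 CPM. Both failed the filter on low counts, which asks for 2 libraries, and so were not tested. The third untested member, Slc4a5, a bicarbonate cotransporter gene, stood at 56.4 CPM in mb_1 and at most 0.143 CPM in the other males.

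With mb_1 included, 16 of 17 tested choroid genes had higher estimates in mb, with a median log2 fold change of 4.17, and 0 had an unadjusted p under 0.05. Without mb_1 the median was -0.67, and the estimate of Ttr turned from 8.37 ± 3.62 (SE) to -1.26. That of Clic6 turned from 5.61 to -0.28, that of Folr1 from 4.31 to -0.72 and that of Sostdc1 from 3.66 to -0.89, while Enpp2 kept 0.22 of 5.61 and Kl 0.38 of 4.69. Without mb_2, which leaves mb_1 alone on its side, the estimate was 9.37 for Ttr, 6.61 for Enpp2, 6.61 for Clic6 and 5.66 for Kl. Both mb libraries were above both mv libraries in 5 of the 17. Summed over the tested members, choroid plexus RNA made up 23000 CPM in mb_1, 263 CPM in mb_2, 292 and 391 CPM in mv and 409 to 760 CPM in f. Igf2, a growth factor gene of choroid plexus and meninges, stood at 11.6 CPM in mb_1 and 0.491 to 0.577 CPM in the other males. Its log2 fold change of 3.38 turned to -0.22 without mb_1.

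**Figure D2:**
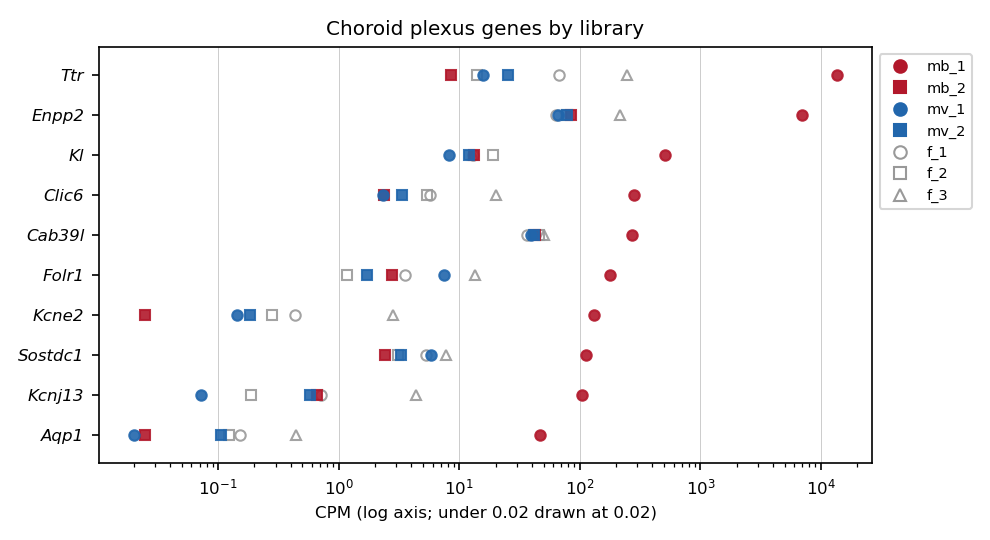
Levels in CPM (log axis) of 10 choroid plexus genes, one marker per library. The red circle, mb_1, lies far to the right for every gene, for example at 13600 CPM for Ttr, while mb_2 lies among the mv and f libraries, at 8.55 CPM for Ttr.

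Ependymal genes, which mark the ciliated lining of the ventricles, followed the choroid plexus genes only in part. Their mean log2 level was 4 in mb_1, 2.96 in mb_2, 4.52 in mv_1 and 3.11 in mv_2. Thus mb_1 stood above mb_2 and mv_2, but mv_1 stood highest. Their sum was 314 CPM in mb_1 and 152 CPM in mb_2, and 484 CPM in mv_1 and 156 CPM in mv_2. The members differed. Ccdc153, a cilium gene, stood at 74.2 CPM in mv_1 and at 21, 21.5 and 21 CPM in mb_1, mb_2 and mv_2. Foxj1 stood at 53 and 12.2 CPM in mb and 39.1 and 12.7 CPM in mv, with mb_1 highest. Of 15 ependymal genes tested, 11 had lower estimates in mb, with a median log2 fold change of -0.51 that turned to 0.56 without mv_1. For Ccdc153 the estimate turned from -1.17 to 0.02.

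Meningeal, mural and fibroblast genes had higher estimates in mb. Of 19 tested, 18 were higher, with a median log2 fold change of 0.71, 3 had an unadjusted p under 0.05, and 7 had both mb libraries above both mv libraries. DESeq2 called 1, Ptgds. Dcn, the decorin gene of fibroblasts, stood at 13.7 and 28.9 CPM in mb and 8.96 and 6.82 CPM in mv, but at 14.7 CPM in f_1. It had an edgeR adjusted p of 0.852 with all libraries, 0.0153 without mb_1 and 0.696 without mb_2. The list's median was 0.25 without mb_1.

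Antigen presentation genes stood higher in mb. H2-Aa, an MHC class II chain gene of antigen presenting cells, stood at 2.07 and 4.52 CPM in mb, at 0 and 0.236 CPM in mv and at 0.218 to 1.06 CPM in f. H2-Ab1, its partner chain gene, stood at 2.07 and 6.63 CPM in mb and 0.785 and 1.08 CPM in mv. Cd74, the invariant chain gene that escorts both, stood at 7 and 12.8 CPM in mb and 0.999 and 3.49 CPM in mv. The 3 genes thus had the same order, with mb_2 highest and mv_1 lowest. The log2 fold change of H2-Aa was 5.1, 3.98, 3.78 and 9.98 without mb_1, mb_2, mv_1 and mv_2. Over these fits that of H2-Ab1 ran from 1.14 to 2.82, and that of Cd74 from 1.51 to 3.3.

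Of 19 interferon and antigen presentation genes tested, 16 had higher estimates in mb, 8 of them with an unadjusted p under 0.05, and the median log2 fold change was 0.6. It was 0.29 without mb_1. Bst2, an interferon-induced gene, stood at 18 CPM in mb_1 and at 2.48 CPM in mb_2, between 2.71 and 1.71 CPM in mv, and passed only without mb_2 among the 4 leave-out fits (adjusted p = 1.26e-06). H2-Q2, a nonclassical MHC gene outside this list, went the other way at 13 and 13.3 CPM in mb and 25.3 and 31.7 CPM in mv, and H2 genes share reads with close relatives. Microglial genes had a smaller median of 0.16, with 12 of 18 higher and 6 lower in mb and 0 with an unadjusted p under 0.05. In 8 of the 18 both mb libraries were above both mv libraries, and in 1 they were below.

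Myelin genes were higher in mb, most of all in mb_1. Mbp, the myelin basic protein gene, stood at 4750 CPM in mb_1, 1790 CPM in mb_2, 1240 CPM in mv_1 and 1480 CPM in mv_2. Mobp stood at 1690 and 532 CPM against 386 and 399 CPM, and Trf, the transferrin gene of oligodendrocytes, at 525 and 194 CPM against 98.9 and 143 CPM. In these 3 genes both mb libraries were above both mv libraries, with mb_2 nearer to mv than to mb_1. Myrf, the transcription factor gene that switches on myelin genes, stood at 26.8 and 14.8 CPM in mb and 6.03 and 9.08 CPM in mv.

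Of 23 myelin genes tested, 22 had higher estimates in mb, 9 with an unadjusted p under 0.05, and 14 had both mb libraries above both mv libraries. The median log2 fold change was 0.66, against 0.01 over all genes tested, and it was 0.32 without mb_1. Without mb_2 the log2 fold change was 1.81 for Mbp, 2.11 for Mobp, 2.12 for Trf, 1.83 for Myrf and 1.83 for the connexin gene Gjb1. Without mb_1 it was 0.4, 0.44, 0.68, 0.97 and 0.98. Oligodendrocyte precursor genes had a median of 0.13, with 10 of 15 higher, and astrocyte genes had a median of 0.05, with 10 of 19 higher. In the precursor list, Bcas1 had the lowest p and stood at 254 and 100 CPM in mb and 76.7 and 79.6 CPM in mv. Its log2 fold change was 1.7 without mb_2 and 0.36 without mb_1.

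Glutamatergic neuron genes of cortex and basolateral amygdala had a higher mean log2 level in mb, most of all in mb_2. The level of the cortical and basolateral list was 5.27 and 5.68 in mb and 5.03 and 4.7 in mv. In the glutamatergic neuron list it was 4.13 and 4.6 against 4.32 and 3.51, with mv_1 above mb_1. Of 17 genes tested in the glutamatergic neuron list, 13 had higher and 4 lower estimates in mb. Neurod6, among the lower ones, stood at 5.85 and 7.4 CPM in mb and 26 and 2.78 CPM in mv. The genes that follow are among those of lowest p in their lists, and each had a higher estimate in mb. Slc17a7, the vesicular glutamate transporter gene of these neurons, stood at 443 and 793 CPM in mb, 403 and 145 CPM in mv and 48.6 to 88.6 CPM in f. Its 4 male levels were thus all above the 3 f levels, and mv_1 stood close to mb_1. Slc30a3, the zinc transporter gene of synaptic vesicles, stood at 34.9 and 70.5 CPM in mb and 26.6 and 16.5 CPM in mv. Lypd1, a gene for a nicotinic receptor modulator, stood at 64.7 and 104 CPM in mb and 37.7 and 27.4 CPM in mv. Bcl11b, the transcription factor gene of deep-layer and striatal projection neurons, is a member of the striatal list. It stood at 85.8 and 149 CPM in mb and 70.9 and 37.7 CPM in mv. Fezf2, a fate gene of deep-layer neurons, stood at 29.2 and 41.6 CPM against 23.3 and 8.58 CPM, and Dkk3 at 178 and 147 CPM against 94.3 and 84.8 CPM.

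Of 22 genes tested in the cortical and basolateral list, 21 had higher estimates in mb, 7 with an unadjusted p under 0.05. In 11 of them both mb libraries were above both mv libraries. The median log2 fold change was 0.59 and stayed between 0.53 and 0.76 when each library was left out. Without mb_1, Lypd1 (adjusted p = 0.0199) and Slc30a3 (0.0158) passed edgeR's threshold, and without mb_2 they did not (0.31 and 0.679). In the receptor list, Cckbr and Prokr2 were higher in both mb libraries than in both mv libraries, as were 10 of the 37 genes tested in that list, while 5 were lower in both. Cckbr, the brain cholecystokinin receptor gene, stood at 32.1 and 37.8 CPM in mb and 22.3 and 14.6 CPM in mv, and Prokr2, a prokineticin receptor gene, at 19.7 and 30.3 CPM against 14.4 and 7.48 CPM.

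GABAergic neuron genes had lower estimates in mb in 16 of 19 genes, with a median log2 fold change of -0.55 that shrank to -0.08 without mv_2. Calb1, the calbindin gene, stood at 366 and 587 CPM in mb and 993 and 681 CPM in mv. Hypothalamic genes had a median of -0.41 that turned to 0.18 without mv_2. Oxt, the oxytocin gene, stood at 3.81 CPM in mv_2 and 0.13 to 0.393 CPM in the other males, Pmch, the gene of melanin-concentrating hormone, at 6.09 CPM and 0.464 to 0.639 CPM, and Hcrt, the orexin gene, at 2.26 CPM and 0.344 to 0.714 CPM. In f_3 Oxt reached 44.6 CPM and Pmch 20.6 CPM. The part of these neighbouring tissues in the other differences was not tested.

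Striatal projection neuron genes divided mb_1 from mb_2. Ppp1r1b, the DARPP-32 gene of striatal neurons, stood at 234 CPM in mb_1, 48.4 CPM in mb_2 and 31.6 and 22.5 CPM in mv, and DESeq2 called it (adjusted p = 0.0247). With edgeR it had an adjusted p of 0.852 with all libraries, 7.57e-11 without mb_2 and 1 without mb_1. Meis2, a transcription factor gene of the lateral ganglionic eminence, stood at 62.5 and 29.9 CPM in mb and 15.3 and 21.4 CPM in mv (0.00164 without mb_2). The list as a whole had 12 of 19 higher estimates and a median of 0.25.

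Among transcription factors of medial amygdala lineages, 9 of 17 were higher and 8 lower in mb, with a median of 0.13. Isl1 stood at 4.67 and 3.86 CPM in mb and 7.6 and 8.87 CPM in mv. Otp, a transcription factor gene of hypothalamic and some amygdala neurons, stood at 1.07 and 1.92 CPM in mb, 2.68 and 4.2 CPM in mv and 3.82 to 8.55 CPM in f. Tshz1, a gene of intercalated cells, went the other way at 73.6 and 51.4 CPM in mb and 27.5 and 39.9 CPM in mv. The lineage factors thus showed no common direction.

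Immediate early genes, which neurons switch on within minutes of activity, were highest in mb_2. Fos stood at 32.5 CPM in mb_2, 6.02 CPM in mb_1, 9.81 CPM in mv_1, 4.72 CPM in mv_2 and 4.13 to 13.8 CPM in f. Its log2 fold change was 1.4 ± 0.77 (SE, edgeR adjusted p = 0.852) with all 4 libraries, 2.17 without mb_1 (0.00109) and -0.26 without mb_2 (0.948). Npas4, an activity-dependent transcription factor gene, stood at 1.57 and 5.85 CPM in mb and 1.14 and 1.1 CPM in mv. Nr4a1, an orphan nuclear receptor gene, stood at 23.5 and 43.5 CPM in mb and 15.3 and 14 CPM in mv, but at 18.1 to 25.9 CPM in f. Jun stood at 73.1 and 102 CPM against 47.8 and 51.1 CPM, and Egr3 at 46.4 and 66.9 CPM against 34.2 and 36.1 CPM.

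Of 24 immediate early genes tested, 21 had higher estimates in mb, 11 with an unadjusted p under 0.05, and 11 had both mb libraries above both mv libraries. The median log2 fold change was 0.77, and 0.23 without mb_2 and 1.15 without mb_1. The promoter of Nr4a1 is printed because this gene had the lowest p of the list. It comes from RefSeq on GRCm38.p6, chr15:101266596-101266895, plus strand, and capitals mark TGACG, the core of the cAMP response element, here read as its reverse complement CGTCA.
Nr4a1: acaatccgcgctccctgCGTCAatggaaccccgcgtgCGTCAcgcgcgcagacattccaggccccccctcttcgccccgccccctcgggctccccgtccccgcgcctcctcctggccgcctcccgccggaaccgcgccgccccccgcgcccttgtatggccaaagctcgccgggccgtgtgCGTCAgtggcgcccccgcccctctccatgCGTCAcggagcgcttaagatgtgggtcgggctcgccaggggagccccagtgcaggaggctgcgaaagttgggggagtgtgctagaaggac
It holds 4 copies, which begin 233, 213, 69 and 40 bases before the start. Of the 24 listed genes, 19 matched the promoter table with 30 promoters, of which 15 hold TGACG on either strand, against 20.8 percent of all 32851 promoters. The match describes letters only.

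Glucocorticoid response genes had 13 of 18 higher estimates in mb and a median of 0.35, with 4 at an unadjusted p under 0.05, all higher in mb. Sgk1 above was one of them. The 5 lower estimates included those of Mt1 (-0.57) and Mt2 (-0.75). Both mb libraries were above both mv libraries in 7 genes of the list and below them in 2, Mt1 and Mt2. Fkbp5 and Tsc22d3 had log2 fold changes of 0.1 and -0.15. Ddit4, a stress gene that restrains mTOR, stood at 29.7 and 23.7 CPM in mb and 13 and 8.53 CPM in mv, and had an edgeR adjusted p of 0.0361 without mb_2 and 0.891 without mb_1. Hif3a stood at 4.46 and 4.64 CPM in mb and 2.39 and 1.68 CPM in mv, but at 4.14 to 7.18 CPM in f. The clock genes had 14 of 18 higher estimates, a median of 0.26 and 0 at an unadjusted p under 0.05.

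Sex steroid and hormone receptor genes differed less. The steroid receptor and synthesis list had 7 of 18 higher and 11 lower estimates in mb, with a median of -0.09. Pgr, the progesterone receptor gene, stood at 34.3 and 37.1 CPM in mb and 33 and 47.7 CPM in mv, so that the groups overlapped. The log2 fold changes were 0.32 ± 0.23 (SE) for Esr1, -0.55 ± 0.3 for Cyp19a1 and -0.18 ± 0.27 for Pgr. Akr1c18, a progesterone-inactivating enzyme gene, stood at 0.13 and 0.688 CPM in mb and 1.71 and 1.68 CPM in mv, with an edgeR adjusted p of 0.0168 without mb_2.

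Oxtr, the oxytocin receptor gene, stood at 39 and 47 CPM in mb, 31.1 and 22.1 CPM in mv and 15 to 18.7 CPM in f, with a log2 fold change of 0.68 ± 0.28 (SE). Avpr1a, a vasopressin receptor gene, stood at 1.52, 1.43 and 1.78 CPM in mb_1, mb_2 and mv_1, and at 4.99 CPM in mv_2, nearer to the 6.27 to 8.02 CPM of f. Prlr, the prolactin receptor gene, stood at 169 and 60.3 CPM in mb and 79.5 and 162 CPM in mv. The spread within each name thus exceeded the difference between them. Prlr is also a member of the choroid plexus list, whose RNA was high in mb_1. The part of that tissue in its level was not tested. The 37 receptor genes tested had 22 higher and 15 lower estimates in mb, and a median of 0.17.

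Imprinted genes had lower estimates in mb in 25 of 29, with a median of -0.21, and 12 lay below both mv libraries in both mb libraries. Calcr, the calcitonin receptor gene, stood at 27.7 and 14.5 CPM in mb, 38.6 and 99.6 CPM in mv and 95.7 to 285 CPM in f. It had an edgeR adjusted p of 0.00199 without mb_1 and 0.12 without mb_2. Ndn, the necdin gene, stood at 379 and 487 CPM in mb and 757 and 767 CPM in mv. Dio3, which inactivates thyroid hormone, went the other way at 22.3 and 21.5 CPM in mb, 12.1 and 5.27 CPM in mv and 2.36 to 3.9 CPM in f.

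Genes of respiration and translation were lower in mb, and these estimates rested on mv_1. The mitochondrially encoded list had 12 of 13 lower estimates and a median of -0.89, which was 0.01 without mv_1. In it mt-Nd5, a subunit gene of complex I, stood at 2410 and 2690 CPM in mb and 5700 and 3680 CPM in mv. mt-Nd2 stood at 2550 and 3050 CPM against 7100 and 3690 CPM. Cytosolic ribosomal protein genes had 38 of 39 lower estimates and a median of -0.38, and nuclear genes of the respiratory chain 22 of 29 and -0.38. Both medians were -0.06 without mv_1. Rpl23, for example, stood at 126 and 179 CPM in mb, 359 CPM in mv_1 and 165 CPM in mv_2.

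**Figure D3:**
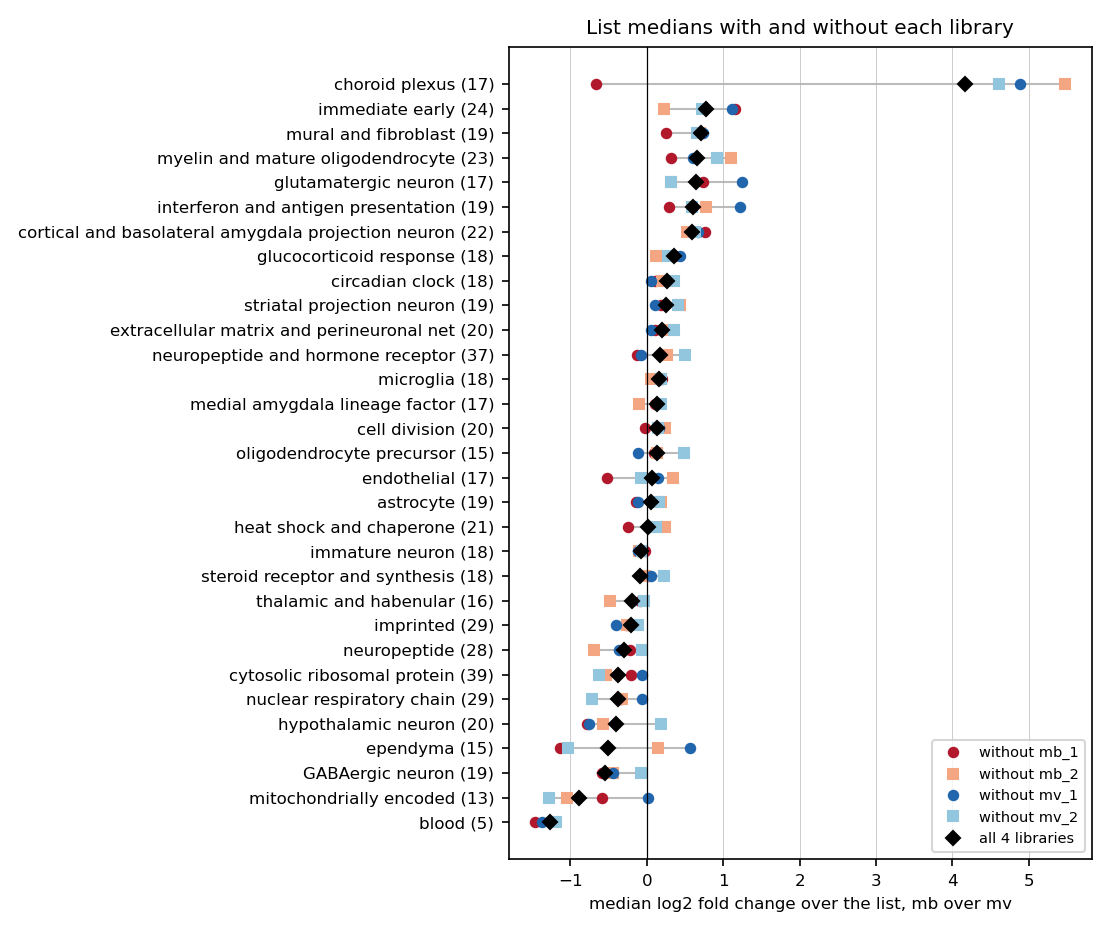
Median log2 fold change (mb over mv) of each gene list, with the number of genes tested in brackets, over all 4 libraries (black diamonds) and with each library left out (coloured markers). The blood list and the cortical and basolateral list stay on one side within a narrow range, as do some lists with smaller medians. The choroid plexus median, in contrast, goes from 4.17 to -0.67 without mb_1, and the mitochondrial median from -0.89 to 0.01 without mv_1.

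Across lists, the blood median (-1.46 to -1.19) and the cortical and basolateral median (0.53 to 0.76) kept narrow ranges when each library was left out. The medians of the myelin (0.32 to 1.1), antigen presentation (0.29 to 1.22), mural and fibroblast (0.25 to 0.74), immediate early (0.23 to 1.15) and glutamatergic neuron lists (0.32 to 1.25) kept their sign over wider ranges. With all libraries, the medians of the immature neuron, cell division, heat shock and chaperone, extracellular matrix, endothelial, and thalamic and habenular lists lay between -0.2 and 0.2. Some lists with smaller medians also kept their sign when each library was left out, among them microglia (0.06 to 0.2) and imprinted genes (-0.4 to -0.11). The glucocorticoid response (0.12 to 0.43) and clock lists (0.05 to 0.36) did so too. Lists share members, and their genes vary together, so that a count over a list is a description and not a test. The percentages of all genes given above, 3.06 and 1.59 for an unadjusted p under 0.05 and 18.3 and 16.3 for levels that do not overlap, are the background of these counts.

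**Figure D4:**
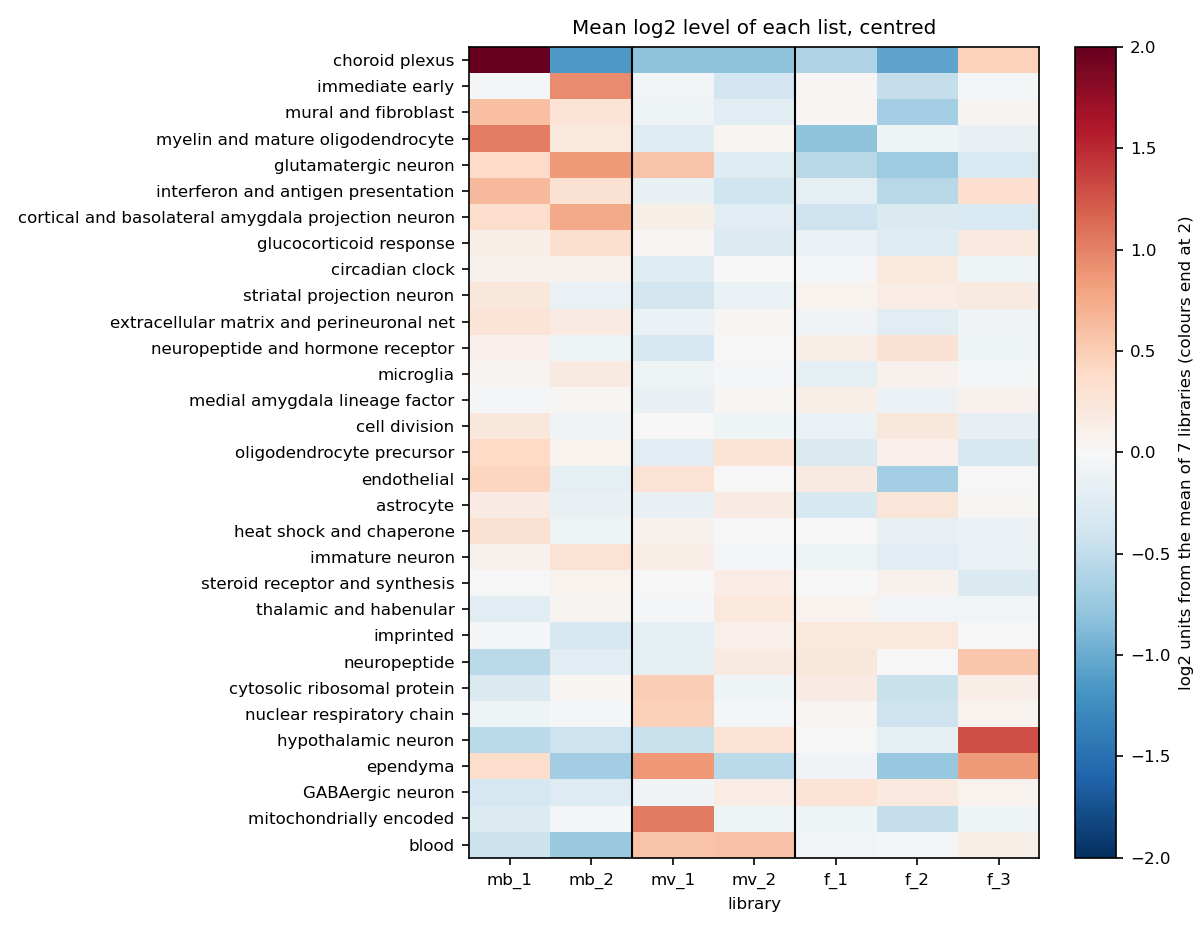
Mean log2 level of each gene list in each of the 7 libraries, centred on the mean of the 7, in log2 units, with colours that end at 2. The choroid plexus row is dark red in mb_1, the immediate early row red in mb_2, and the mitochondrial row red in mv_1, whereas the blood row is blue in both mb libraries and red in both mv libraries.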

How the data were processed

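RNA of the medial amygdala of 3 female and 4 male mice was sequenced in bulk. The authors deposited 1 table with raw counts per gene and library, per the file headers. The submitters' processing notes name the build GRCm39 and the tools TopHat2 2.2.1, cutadapt, DESeq2 1.26.0 and HTSeq 2.0.1, without roles, and the strand setting is not given in the sources used here, so reads of overlapping genes and close copies may be assigned uncertainly. Of 55414 genes, 49164 had complete counts, and 6250 with blank counts were left out. The table's 7 columns of normalized values were not used. The counts of the 4 male libraries passed filterByExpr with a minimum count of 10 and a minimum total of 15, and TMM scaling, before a test with edgeR 4.0.16 (robust quasi-likelihood, R 4.3.3), with an adjusted p of 0.05 as threshold. CPM use TMM factors over all 7 libraries. Total counts of 29049604 to 46494588 leave little counting error except in low genes. Log2 fold changes are mb over mv, and list medians are over tested genes. List levels average log2(CPM + 0.5).

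Column names tied libraries to samples, and mb and mv come from those names alone. Alternatives were other scalings and filters, DESeq2 1.42.0, limma-voom (limma 3.58.1), all 7 libraries, percent DIMPLE as a covariate, the column number as a replicate block and leaving out each library. A crossed block and DESeq2 without each library were added after seeing the data. The rule for named genes took the 15 of lowest p in each direction with a mean of at least 1 CPM (no predicted gene models), up to 4 of lowest p in each of 32 lists, and a fixed set. A few genes taken by it are not reported here. Slc4a5 was named outside it after its values were seen. The comparison and the lists were chosen with earlier results of these data known. The script was tested on simulated data.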

Additional observations from a re-analysis of the deposited data

Results flagged for a closer look

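A library was singled out where its gap to the nearest of the other 3 male libraries, as a share of the range of the 4, passed Dixon's 95 percent critical value. Of 124 items tested, the mean log2 list levels and the log2 levels of named genes, 14 passed. Chance flags about 1 in 20 groups, but the choroid plexus RNA of mb_1 was known when the comparison was chosen and its genes vary together, so the number of items that passed is not evidence of its own.

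In mb_1 the share was 0.934 for the mean level of the choroid plexus list, 0.857 for Ttr, 0.948 for Enpp2, 0.888 for Kl, 0.934 for Clic6, 0.864 for Kcnj13, 0.964 for Cab39l and 0.967 for Igf2. mb_1 was the highest library in each. In mv_1 it was 0.885 for the nuclear respiratory chain list, 0.981 for the cilium gene Ccdc153 and 0.874 for Ddx3y, again with mv_1 highest. In mv_2 it was 0.856 for the hypothalamic neuron list, 0.837 for Avpr1a and 0.913 for Pmch, with mv_2 highest.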

How the results depend on the processing

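edgeR's count of 0 genes held under RLE and upper quartile scaling, a mean CPM filter, all 7 libraries, percent DIMPLE as a covariate, without choroid plexus genes, with limma-voom, at an adjusted p of 0.1 and with a fold limit added. It was 224 (180 higher in mb) without a filter on low counts, 40 with DESeq2, and 0 to 454 when each library was left out. The count by DESeq2 was 13 to 290 when each library was left out (13 without mb_1, 290 without mb_2, 83 without mv_2 and 92 without mv_1). With the column number as a replicate block it was 0, with 570 genes at an unadjusted p under 0.05. Over genes, mb_1 minus mb_2 correlated with mv_1 minus mv_2 at -0.184. Genes vary together and each difference is between single libraries, so this value cannot decide whether the numbers pair the libraries. Crossing the numbers gave 1 gene, with 1851 at an unadjusted p under 0.05. The cause of these differences was not tested, apart from the number of genes and libraries that enter.

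Of 1370 estimates for 92 named genes under the alternatives, 1247 kept their direction uncalled, 108 kept it and passed the threshold, for 56 genes, and 15 turned. The log2 fold change of Prlr turned to 0.09 with percent DIMPLE as a covariate. When each library was left out, it ran from -1 to 0.53 for Prlr, from -0.42 to 0.11 for Pgr, from -0.02 to 0.44 for Penk, from -0.26 to 2.17 for Fos, from -0.22 to 4.33 for Igf2 and from -1.8 to 0.02 for Ccdc153. It ran from -1.26 to 9.37 for Ttr, from -0.28 to 6.61 for Clic6, from -0.72 to 5.73 for Folr1, from -0.89 to 4.65 for Sostdc1, from -0.56 to 0.04 for Ddx3y, from -3.93 to 0.27 for Oxt and from -3.36 to 0.35 for Pmch. Of 479 list medians under the alternatives, 434 moved by less than the spread between libraries of one name. There were 2 libraries a side, and in low genes such as Vmn1r47, with 3 reads in mb, depth limits the values too.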
